A study of Bos taurus with 33 samples.

Results

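The endometrium of pregnant heifers on day 15 of pregnancy was compared with that of pregnant heifers on day 12. The comparison used 8 of the 33 arrays of the series: all 3 arrays of day 15 pregnant animals and all 5 arrays of day 12 pregnant animals. The animals were Bavarian Simmental heifers, with 1 array each, synchronised with cloprostenol, an analogue of prostaglandin F2α. Pregnant animals had been inseminated with frozen sperm of a single bull. Cyclic control animals, 3 on day 15 and 5 on day 12, had received sperm-free supernatant instead. They serve here as the background of what differs between the days without a conceptus. Tissue was intercaruncular endometrium (the lining between the sites where the placenta will attach) from the horn on the side of the ovulation, collected at slaughter. On day 15 it came from the medial part of the horn, after the uterus had been opened and the conceptus removed. On day 12 it came from the distal part, after the uterus had been flushed with saline. Day, horn part and handling cannot be told apart in this comparison. The labels call the animals of a group biological replicates.

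In cattle the elongating conceptus signals to the mother through interferon tau, a type I interferon made by the trophoblast. It acts on endometrial receptors and switches on interferon-stimulated genes, and it restrains the release of luteolytic prostaglandin F2α so that the corpus luteum persists. Progesterone, which rises in the cyclic and in the pregnant animal alike, changes the glands and the luminal epithelium over the same days and drives secretion and nutrient transport into the uterine lumen, on which the free-floating conceptus feeds.

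Expression was measured as log2 values on Affymetrix bovine arrays, and changes are log2 differences, day 15 minus day 12, ± SE unless stated. The deposited values of the 2 days followed different distributions, from which separate normalisation of the days was inferred. The 8 arrays were therefore quantile normalised together. After that step the arrays correlated at 0.9916 to 0.9926 within day 15, at 0.9905 to 0.9938 within day 12 and at 0.964 to 0.9685 between the days. The GAPDH control signal, read at the 3′ end minus the 5′ end, was -0.16 to -0.05 log2 on day 15 and 0.36 to 0.56 on day 12 in pregnant animals. In cyclic animals it was -0.11 to -0.04 on day 15 and 0.22 to 0.55 on day 12. The actin control difference was 2.31 to 2.55 on day 15 and 1.94 to 2.29 on day 12 in pregnant animals, and 2.22 to 2.67 and 2.12 to 2.36 on these days in cyclic animals, where the ranges overlapped. The GAPDH control thus differed with the day in both states, and the part of RNA quality in the changes was not tested.

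Of 24016 probe sets, 6266 (26.1%) were higher and 6246 (26.0%) lower on day 15 at an adjusted p below 0.05, and 3.00% and 2.80% were so by at least 2-fold. At the level of named genes, 28.5% of 9155 were higher and 26.1% lower, and the arrays of the 2 groups did not overlap for 52.7%. A change of at least 2-fold was reached by 311 genes upward (3.40%) and 250 downward (2.73%), a call rule added after the data had been seen. In cyclic animals 27.3% of genes were higher and 24.9% lower on day 15. Passing the test was thus common with or without a conceptus. The counts below are read against these shares. The gene lists and their members were chosen with earlier results of these data known, so their counts are not an independent test. In bulk tissue, fewer cells of a type and less RNA per cell cannot be told apart.

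**Figure D1:**
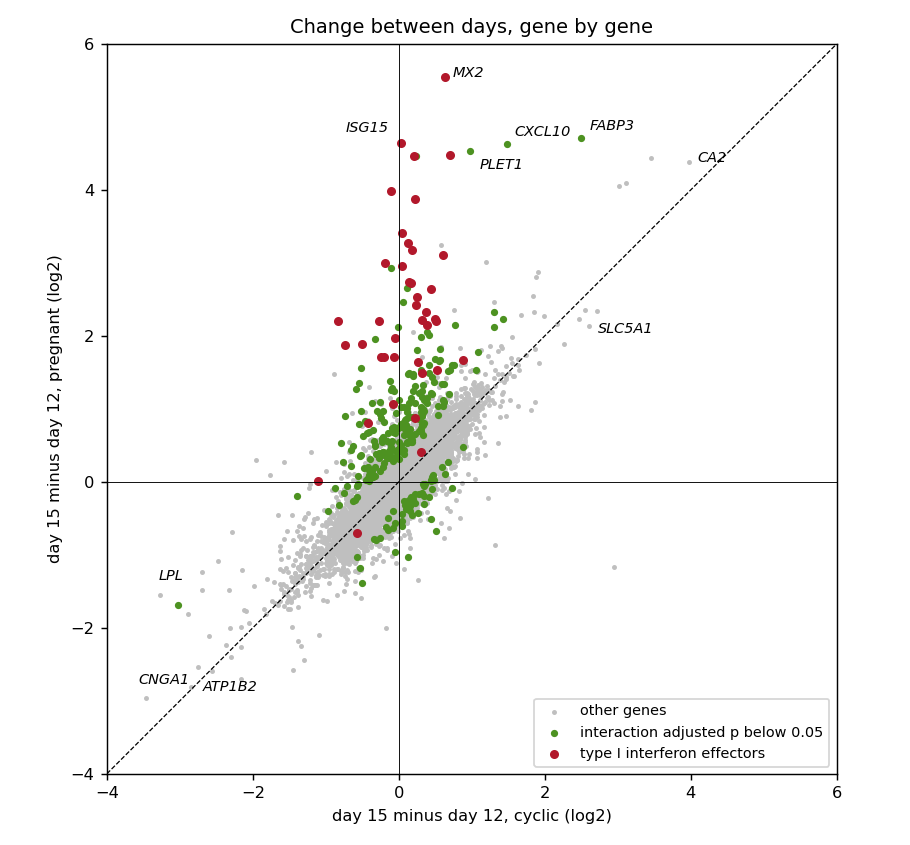
Change between the days in pregnant animals (vertical axis, log2, day 15 minus day 12) against the change in cyclic animals (horizontal axis, log2) for 9155 genes, 1 point per gene; the dashed line marks equal change. Most type I interferon effectors (red) stand above the line, up to 5.54 for MX2 with a cyclic change of 0.64. The difference passed upward for 33 of the 40 effectors, and HERC5 (-0.70 against -0.57) lies below the line. CA2 and ATP1B2 lie near the line. Green points are other genes that passed the test of the difference between the changes.

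The plot of both changes separates a group of genes that rose far more in pregnant animals from many that moved alike in both. Of the 311 genes at least 2-fold higher in pregnant animals, 236 (75.9%) also passed upward in cyclic animals. For 104 of the 311 (33.4%) the rise was larger in pregnant animals by the test of the difference. Of the 250 genes at least 2-fold lower, 222 (88.8%) also passed downward in cyclic animals and 4 (1.6%) fell further in pregnant ones by that test. The difference passed upward for 1.89% and downward for 0.645% of all probe sets. Over genes it passed upward for 243 (2.65%) and downward for 51 (0.557%). Of the 243, 42 belonged to the 3 lists of interferon effectors, interferon signalling and MHC class I (40, 15 and 16 genes measured). The size of the difference between the changes also varied: 91 of the 243 and 2 of the 51 reached 1 log2 unit. The pregnant and the cyclic comparison share no arrays, but the pregnant and cyclic arrays of a day share horn part and, as inferred, normalisation.

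Interferon-stimulated genes made up most of the steepest rises. Of 40 measured type I interferon effectors, 38 rose, HERC5 fell and 1 did not pass, and 35 rose at least 2-fold. Their median change was 2.22 log2 in pregnant and 0.18 in cyclic animals, beside a median over all genes of 0.01 and 0.02. The mean level of the list was 9.90 to 10.06 in the 3 day 15 pregnant animals and 7.40 to 7.83 in the 5 day 12 pregnant animals. Cyclic animals had mean levels of 7.38 to 7.88 on day 15 and 7.36 to 7.65 on day 12. The day 15 pregnant animals therefore stood apart from all 3 other groups in this list, with no overlap. That separation was not particular to the effectors. The mean levels also lay above all 3 other groups in the lists of interferon signalling, MHC class I, complement and chemokines. The same held for secreted proteins, tryptophan metabolism and, narrowly, macrophage markers. For MHC class I they were 10.20 to 10.31, against 9.19 to 9.88 on day 12 of pregnancy.

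MX2, an antiviral GTPase, was at 11.06, 10.83 and 10.68 in day 15 pregnant animals, against 6.03, 4.58, 4.98, 5.66 and 5.33 in day 12 pregnant animals. That is a rise of 5.54 ± 0.28, or 46.7-fold (adjusted p = 1.71e-06). The cyclic change was 0.64 ± 0.29 (adjusted p = 0.0798). MX2 thus rose more than any other named gene that passed without overlap between the groups. Such non-overlap was met by 52.7% of all genes. ISG15, a ubiquitin-like protein that is attached to other proteins after interferon, was at 13.53, 13.33 and 13.35 on day 15 and at 9.39, 8.12, 8.71, 8.78 and 8.80 on day 12. It rose by 4.64 ± 0.22 (adjusted p = 1.46e-06), with a cyclic change of 0.03 ± 0.34. The spread among the day 12 animals exceeded that among the day 15 animals for both genes.

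RSAD2, which encodes the antiviral protein viperin, was at 12.54, 12.24 and 12.23 on day 15, against 8.34, 7.52, 7.77, 7.91 and 7.82 on day 12 of pregnancy. IFI44L had values of 10.79, 10.64 and 10.77 on day 15, against 6.69, 6.11, 6.28, 6.28 and 5.88 on day 12. Both groups were tight and far apart: RSAD2 rose by 4.46 ± 0.16 and IFI44L by 4.49 ± 0.15, while their cyclic changes were 0.20 ± 0.31 and 0.70 ± 0.18. IFI44 rose by 3.98 ± 0.19 and SAMD9, an antiviral restriction factor, by 3.88 ± 0.27. USP18, the protease that removes ISG15 from its targets and dampens interferon signalling, rose by 3.41 ± 0.15, RTP4 by 3.27 ± 0.17 and MX1, the relative of MX2, by 3.17 ± 0.14. The cyclic changes of these 5 genes lay between -0.11 and 0.22 and none of them passed. IFI6 rose by 2.23 ± 0.14 and LGALS9, a galectin, by 1.64 ± 0.10, with cyclic changes of 0.50 ± 0.20 and 0.27 ± 0.13.

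Day 12 pregnant replicate 1 was the highest of the day 12 pregnant animals in MX2, ISG15, RSAD2, IFI44L, IFI44, SAMD9, USP18, RTP4, MX1 and IFI6. Its mean over the effector list was 7.83, against 7.40 to 7.62 in the other day 12 pregnant animals. No call on these genes depended on it. HERC5, which in humans is a ligase for ISG15, went the other way: it was at 4.61, 4.25 and 4.90 on day 15, against 5.22, 5.42, 5.38, 5.26 and 5.14 on day 12, a fall of 0.70 ± 0.13 in log2 (adjusted p = 0.00196). Its cyclic change was -0.57 ± 0.26 (adjusted p = 0.0841), and the difference between the changes did not pass (adjusted p = 0.927). All of these HERC5 values lay below the median deposited value, which was 6.5 on day 15 and 6.86 on day 12.

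**Figure D2:**
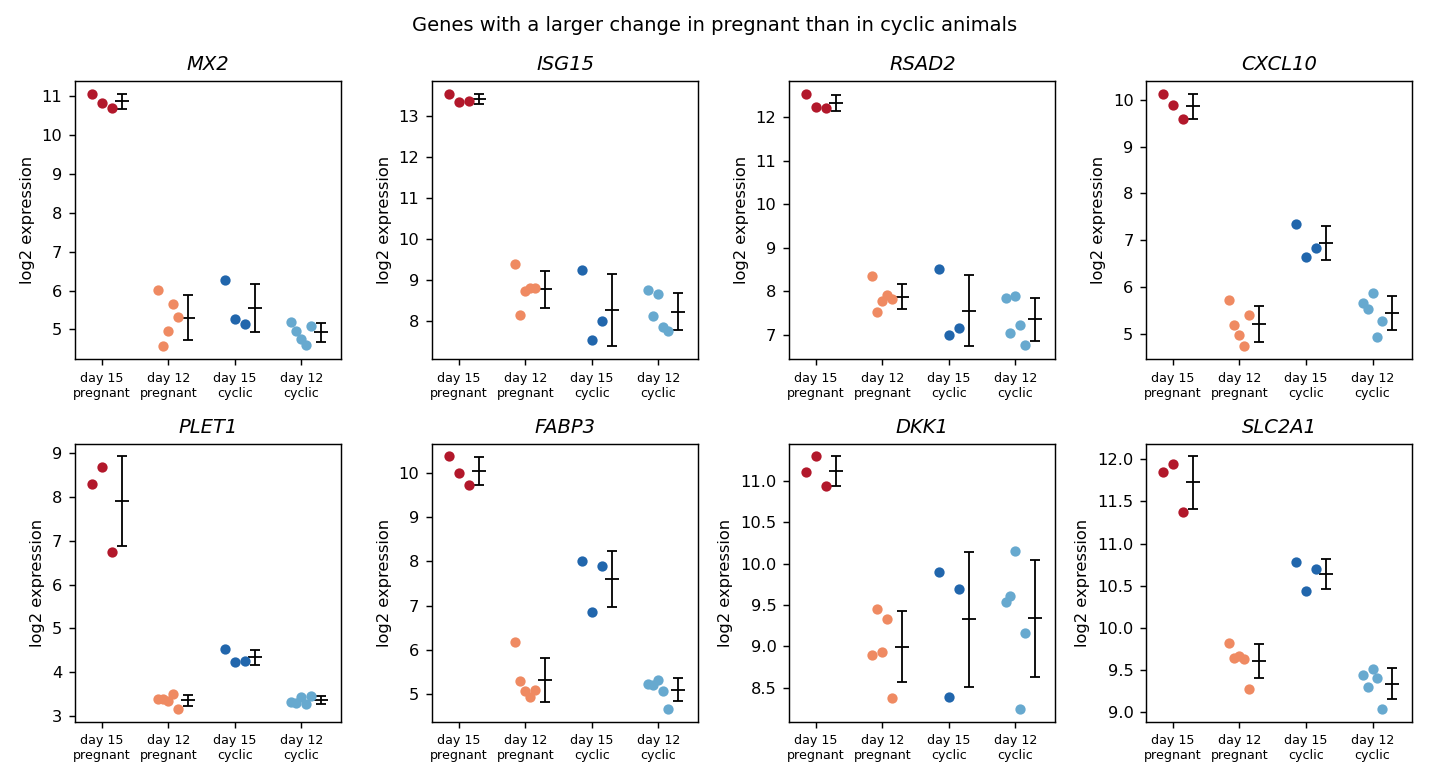
Log2 expression per animal (points) with the mean and SD beside them for 8 genes, in 3 day 15 pregnant, 5 day 12 pregnant, 3 day 15 cyclic and 5 day 12 cyclic animals, all 16 arrays quantile normalised together. The day 15 pregnant animals are the highest group in every panel; in MX2, ISG15, RSAD2 and DKK1 the day 15 and day 12 cyclic animals overlap, whereas CXCL10, PLET1, FABP3 and SLC2A1 are also higher on day 15 in cyclic animals.

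Receptors and signalling genes of the interferon pathway moved both ways: of 15 measured, 7 rose and 4 fell, and 3 rose at least 2-fold. Among those that rose were IRF9, IRF7, STAT2 and IRF3, and those that fell were IFNAR1, STAT3, IRF2 and PTPN6. IRF9, the DNA-binding part of the complex that type I interferon activates, was at 10.77, 10.61 and 10.62 on day 15, against 9.01, 8.52, 8.63, 8.75 and 8.67 on day 12. It rose by 1.95 ± 0.11, with a cyclic change of -0.33 ± 0.15. IRF7, a transcription factor that amplifies interferon responses, rose by 1.57 ± 0.14 and STAT2, the partner of IRF9, by 1.10 ± 0.08. In cyclic animals IRF7 and STAT2 fell, by 0.52 and 0.26 (adjusted p = 0.00149 and 0.0211). IRF3, a related factor that sets off interferon production, rose by 0.85 ± 0.07, with a cyclic change of 0.08 ± 0.09. IFNAR1, a chain of the type I interferon receptor, was at 5.33, 4.95 and 4.95 on day 15 and at 5.82, 6.29, 6.05, 5.98 and 6.25 on day 12, a fall of 1.00 ± 0.13 with a similar cyclic change of -0.85 ± 0.12. STAT3, a transcription factor of cytokine receptors, fell by 0.88 ± 0.13 in pregnant and 0.89 ± 0.13 in cyclic animals, but its other probe set did not pass and the mean over both was 0.13. IRF2, which opposes activation by IRF1, fell by 0.64 ± 0.13 and 0.89 ± 0.12, while its other probe set passed upward and the mean over both did not pass. PTPN6, a phosphatase that dampens cytokine signalling, fell by 0.41 ± 0.08, with a cyclic change of -0.18 ± 0.09. The other receptor chain, IFNAR2, rose by 0.29 ± 0.07 and in cyclic animals by 0.36 ± 0.08, but its change was -0.07 in the values as deposited. The median of this list, 0.14, also turned negative in the deposited values (-0.13).

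Of 16 measured genes of antigen presentation by MHC class I, which displays peptides from inside the cell to T cells, 11 rose and 2 fell. Of these, 4 rose at least 2-fold, and the median was 0.57 in pregnant and 0.08 in cyclic animals. The largest change of the list, 3.24, did not pass. TAP1, a chain of the pump that carries peptides into the endoplasmic reticulum, was at 9.54, 9.38 and 9.55 on day 15, against 8.23, 8.27, 8.15, 8.53 and 8.00 on day 12. It rose by 1.25 ± 0.11, with a cyclic change of -0.10 ± 0.14. PSMB9, a subunit of the immunoproteasome that cuts the peptides, rose by 1.09 ± 0.10 and PSME2, part of a proteasome activator, by 1.13 ± 0.07, with cyclic changes of 0.14 ± 0.11 and 0.35 ± 0.07. PSMB10, another immunoproteasome subunit, rose by 1.08 ± 0.10 in pregnant and by 0.50 ± 0.11 in cyclic animals. The difference from the cyclic change passed for 5 of the 16 genes, TAP1, PSMB8, PSMB9, PSME1 and PSME2, but not for PSMB10 (adjusted p = 0.0649). The 2 genes that fell were the endoplasmic reticulum chaperones PDIA3 (-0.77 ± 0.08) and CALR (-0.42 ± 0.09), and both fell in cyclic animals too, by 0.88 and 0.57.

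MHC class II genes, which present peptides taken up from outside, rose in both states. In pregnant animals 7 of 12 rose and none fell, with a median of 0.75, and 7 of 12 rose in cyclic animals, with a median of 0.55. BOLA-DMB, which helps to load peptides, rose by 1.17 ± 0.12 in pregnant and 0.57 ± 0.12 in cyclic animals. CTSS, the cathepsin that trims the invariant chain, rose by 0.78 ± 0.07 and 0.40 ± 0.08. For neither gene did the difference between the 2 changes pass (adjusted p = 0.0741 and 0.0972). IFI30, a thiol reductase that opens disulfide bonds of proteins before they are presented, rose by 1.04 ± 0.08 and 0.53 ± 0.09. That difference passed (adjusted p = 0.04) but was lost in 12 of 16 runs that left out 1 array, with adjusted p up to 0.112; it was kept without day 12 cyclic replicate 2, day 12 pregnant replicate 1 or 3, or day 15 cyclic replicate 1.

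Of 41 measured chemokines and cytokines, 20 rose and 5 fell (3 without day 15 pregnant replicate 3), with a median of 0.31 in pregnant and 0.17 in cyclic animals. CXCL10, an interferon-induced chemokine that recruits activated T cells and natural killer cells, was at 10.12, 9.88 and 9.58 on day 15, against 5.74, 5.21, 5.00, 4.75 and 5.41 on day 12. It rose by 4.64 ± 0.21, or 24.9-fold. It also rose in cyclic animals, by 1.48 ± 0.23, and the difference between the changes passed (adjusted p = 2.93e-05). CCL8, a monocyte chemokine, rose by 2.66 ± 0.16, with a cyclic change of 0.11 ± 0.19. CCL2, another monocyte chemokine, varied widely on day 15, with values of 7.36, 6.21 and 5.95 against 4.98, 4.37, 4.45, 4.16 and 5.33 on day 12. It rose by 1.85 ± 0.34, and its difference from the cyclic change did not pass (adjusted p = 0.127). CXCL12, made by stromal cells, rose alike in both states, by 1.60 ± 0.20 and 1.63 ± 0.22. CCL20 and TGFB1, a growth factor that restrains immune cells, fell in pregnant animals by 1.24 ± 0.11 and 1.24 ± 0.18. The cyclic changes were -1.27 ± 0.11 for CCL20 and -1.52 ± 0.16 for TGFB1. CCL3, a monocyte chemokine too, fell by 0.34 ± 0.09 in pregnant and 0.41 ± 0.10 in cyclic animals, but its 2 other probe sets did not pass, nor did the mean over its probe sets.

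Several complement genes and most macrophage markers rose on day 15 of pregnancy. Of 21 complement genes, 9 rose and 2 fell, with a median of 0.31 in pregnant and 0.05 in cyclic animals. C4A, a component of the classical pathway, was at 12.17, 12.12 and 11.88 on day 15, against 10.90, 9.84, 10.71, 10.84 and 9.45 on day 12. It rose by 1.71 ± 0.32, with a cyclic change of 0.32 ± 0.31. CFB, a factor of the alternative pathway, rose by 1.99 ± 0.12 and in cyclic animals by 1.55 ± 0.15. Of 14 markers of macrophages and dendritic cells, 9 rose and none fell, with a median of 0.70 in pregnant and 0.25 in cyclic animals. C1QB, a chain of the complement starter C1q made by macrophages, rose by 1.09 ± 0.12, with a cyclic change of 0.14 ± 0.20. FCGR1A, an Fc receptor that interferon also induces, rose by 1.08 ± 0.11 and CD86, a costimulatory ligand, by 0.95 ± 0.07, with cyclic changes of 0.37 ± 0.14 and 0.54 ± 0.10. The difference from the cyclic change did not pass for C4A, CFB, C1QB, FCGR1A or CD86. It passed for 2 of the complement genes, C1S and C1R, proteases of the classical pathway, and for 1 of the macrophage markers, AIF1, of which C1R and AIF1 were chosen after their values had been seen. C1S rose by 1.21 ± 0.11 in pregnant and 0.45 ± 0.12 in cyclic animals (adjusted p of the difference = 0.0303). Its call was lost in 7 of 16 runs that left out 1 array, those without day 12 pregnant replicate 2, 4 or 5, day 15 cyclic replicate 2 or 3, or day 15 pregnant replicate 1 or 2, with adjusted p up to 0.092. C1R rose by 0.94 ± 0.08, with a cyclic change of -0.04 ± 0.12 (adjusted p of the difference = 0.00405). AIF1 rose by 0.91 ± 0.09 and 0.32 ± 0.10, and its difference (adjusted p = 0.0454) was kept in 5 of the 16 runs, those without day 12 cyclic replicate 4 or 5, day 12 pregnant replicate 1, day 15 cyclic replicate 1 or day 15 pregnant replicate 2. The mean level of the macrophage list was 6.95 to 7.004 on day 15 and 6.33 to 6.56 on day 12 in pregnant animals, and 6.55 to 6.94 and 6.38 to 6.91 on these days in cyclic animals.

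Of 10 genes of tryptophan and nitric oxide metabolism, 4 rose and none fell. IDO1, the interferon-inducible enzyme that breaks down tryptophan, was at 5.53, 6.02 and 5.41 on day 15, against 4.42, 4.79, 4.81, 4.68 and 4.65 on day 12, a rise of 0.98 ± 0.14 with a cyclic change of 0.34 ± 0.13. WARS1, which charges tryptophan onto its transfer RNA, rose by 1.25 ± 0.14, with a cyclic change of -0.07 ± 0.12. Of 3 other WARS1 probe sets, 2 passed upward and 1 downward.

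Among secreted and luminal proteins, PLET1 had a rise among the steepest outside the interferon lists. Of 29 measured genes of this list, 10 rose and 5 fell, with a median of 0.14 that became -0.08 in the deposited values. The shares over all genes were 28.5% higher and 26.1% lower. PLET1, in mice a surface protein of epithelial and trophoblast cells, was at 8.29, 8.68 and 6.74 on day 15, against 3.39, 3.40, 3.34, 3.52 and 3.17 on day 12 of pregnancy. It rose by 4.54 ± 0.35, or 23.2-fold, and by 0.98 ± 0.28 in cyclic animals (adjusted p of the difference = 6.59e-05). The day 12 animals lay within a narrow band, whereas the third day 15 animal stood well below the other two. SERPINA14, the uterine serpin or uterine milk protein, was at 9.76, 8.08 and 9.43 on day 15, against 6.49, 6.24, 6.67, 7.60 and 6.12 on day 12. It rose by 2.47 ± 0.41 and by 1.31 ± 0.43 in cyclic animals, and the difference did not pass (adjusted p = 0.404). CLDN4, a tight junction protein, rose by 1.66 ± 0.11 and CDH1, the epithelial cadherin, by 1.02 ± 0.07. Each rose more than in cyclic animals, where the rises were 0.55 ± 0.15 and 0.30 ± 0.07. CDH1 is counted in the adhesion and epithelial lists, not in this one. Both genes are among 15 epithelial markers, of which 4 rose and 6 fell. Those that fell include TJP1 (-1.415 ± 0.09), ELF3 (-0.90 ± 0.10) and CLDN7 (-0.78 ± 0.12). The other TJP1 probe set did not pass. RBP4, the retinol carrier, fell by 1.21 ± 0.26 and S100G, a calcium-binding protein, by 1.00 ± 0.16. MUC1, a mucin of the luminal surface, fell by 0.56 ± 0.12, with a cyclic change of -0.29 ± 0.14. RBP4 and S100G fell in cyclic animals as well, by 1.36 and 0.49.

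Among nutrient transporters the steepest rises were in glucose transport. Of 24 glucose and amino acid transporters, 8 rose and 7 fell (4 without day 15 pregnant replicate 1 or 2), with a median of 0.16 that became -0.11 in the deposited values. SLC2A1, the facilitative glucose transporter GLUT1, was at 11.86, 11.95 and 11.37 on day 15, against 9.82, 9.64, 9.66, 9.62 and 9.27 on day 12. It rose by 2.12 ± 0.15, or 4.36-fold, and by 1.30 ± 0.15 in cyclic animals. The difference passed by a narrow margin (adjusted p = 0.0476) and was lost in 13 of 16 runs that left out 1 array, with adjusted p up to 0.138. It was kept without day 12 cyclic replicate 5, day 12 pregnant replicate 1 or day 15 pregnant replicate 3. SLC5A1, which takes up glucose together with sodium, was at 11.21, 11.15 and 11.30 on day 15, against 9.53, 8.69, 9.64, 9.35 and 8.22 on day 12, a rise of 2.14 ± 0.29. It rose in cyclic animals by 2.61 ± 0.57.

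Lipid genes moved in both directions, with 9 of 30 higher and 10 lower, near the shares over all genes. FABP3, a carrier of fatty acids inside the cell, was at 10.37, 10.01 and 9.73 on day 15, against 6.18, 5.30, 5.08, 4.93 and 5.11 on day 12. It rose by 4.72 ± 0.27, or 26.3-fold, and by 2.49 ± 0.28 in cyclic animals (adjusted p of the difference = 0.00614). It was second to MX2 among the rises without overlap. LPL, which releases fatty acids from circulating triglyceride, was at 4.17, 4.68 and 5.02 on day 15, against 6.22, 5.96, 6.19, 6.31 and 5.88 on day 12, a fall of 1.49 ± 0.18. Its cyclic change was -2.70 ± 0.29. CD36, a fatty acid receptor, fell by 1.34 ± 0.36 (by 0.84 without day 15 pregnant replicate 1), with a cyclic change of 0.27 ± 0.41. For neither did the difference pass (adjusted p = 0.156 and 0.181). DGAT2, which completes triglyceride synthesis, was at 8.33, 6.83 and 6.87 on day 15, against 9.90, 9.71, 10.41, 9.81 and 9.59 on day 12. It fell by 2.54 ± 0.33 and in cyclic animals by 2.75 ± 0.33.

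Of 14 genes of the insulin-like growth factor system, 2 rose and 4 fell. IGFBP1, a binding protein that in sheep also supports movement of trophoblast cells, was at 11.34, 10.11 and 11.04 on day 15, against 9.29, 8.33, 8.99, 8.26 and 7.50 on day 12. It rose by 2.35 ± 0.40 in pregnant and 2.55 ± 0.60 in cyclic animals. IGF2, a fetal and placental growth factor, fell by 1.05 ± 0.14 and by 0.54 ± 0.13. Its 3 other probe sets disagreed, with 1 passing downward, 1 upward and 1 not at all.

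Genes of the Wnt pathway, which patterns the uterus and its glands, fell more often than they rose. Of 24 measured, 13 fell and 1 rose, with a median of -0.36 in pregnant and -0.42 in cyclic animals. The receptor ROR2 fell by 1.14 ± 0.16, the ligands WNT2B by 1.14 ± 0.27 and WNT11 by 1.09 ± 0.14, and the receptor FZD10 by 1.01 ± 0.14, and all 4 fell in cyclic animals as well. Of 2 other WNT2B probe sets, 1 passed downward and 1 upward. DKK1, a secreted inhibitor of Wnt signalling, was the exception. It was at 11.12, 11.30 and 10.94 on day 15, against 8.89, 9.45, 8.92, 9.33 and 8.38 on day 12, a rise of 2.12 ± 0.22, or 4.36-fold, while its cyclic change was -0.01 ± 0.38. The difference passed narrowly (adjusted p = 0.0497) and was lost in 14 of 16 runs that left out 1 array, with adjusted p up to 0.134. It was kept without day 12 cyclic replicate 4 or day 15 cyclic replicate 1.

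Steroid receptors and their cofactors gave 3 rises and 6 falls among 15 genes (3 falls without day 15 pregnant replicate 2). FKBP5, a cochaperone of steroid receptors that progesterone and glucocorticoids induce, was at 5.64, 5.88 and 5.82 on day 15, against 6.77, 7.21, 7.23, 7.61 and 7.17 on day 12. It fell by 1.42 ± 0.16, HSD11B2, which inactivates cortisol, by 1.22 ± 0.10 and ESR1, the estrogen receptor alpha, by 0.58 ± 0.10. All 3 fell in cyclic animals, by 1.18, 0.79 and 0.69. The level of ESR1 was low on both days, with means of 4.58 on day 15 and 5.15 on day 12 of pregnancy. PGR, the progesterone receptor, changed by -0.12 ± 0.10 and OXTR, the oxytocin receptor that couples luteal oxytocin to prostaglandin release, by -0.27 ± 0.15. Neither passed (adjusted p = 0.34 and 0.15), while in cyclic animals PGR fell by 0.44 ± 0.13 (adjusted p = 0.0129) and OXTR changed by 0.36 ± 0.19. The difference passed for neither, and in pregnant animals both changes were positive under median centring.

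In prostaglandin metabolism 3 of 19 genes rose and 6 fell. PTGS2, the inducible cyclooxygenase, was at 9.96, 9.76 and 11.04 on day 15, against 9.17, 8.10, 8.42, 8.76 and 7.54 on day 12. It rose by 1.86 ± 0.38 in pregnant and 1.40 ± 0.41 in cyclic animals, and of its 2 other probe sets 1 did not pass. AKR1B1, which acts as a prostaglandin F synthase in bovine endometrium, was at 11.59, 11.31 and 11.07 on day 15, against 12.44, 12.49, 12.45, 12.90 and 12.66 on day 12. It fell by 1.26 ± 0.14 in pregnant and 0.95 ± 0.14 in cyclic animals, and PTGDS, a prostaglandin D synthase, fell by 0.98 ± 0.18 and 0.61 ± 0.17. PTGES, a prostaglandin E synthase, changed by -0.74 ± 0.28 (adjusted p = 0.0503). It passed without day 12 pregnant replicate 1 or 3 (-0.49 and -0.84). Its cyclic change was -0.36 ± 0.24. HPGD, which inactivates prostaglandins, changed by -0.34 ± 0.14 (adjusted p = 0.0616) and passed without day 12 pregnant replicate 2 (-0.44), with a cyclic change of -0.19 ± 0.13. Both also passed in the fit of all 16 arrays (adjusted p = 0.019 for PTGES and 0.0322 for HPGD) and in the values as deposited (0.0147 and 0.00552).

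**Figure D3:**
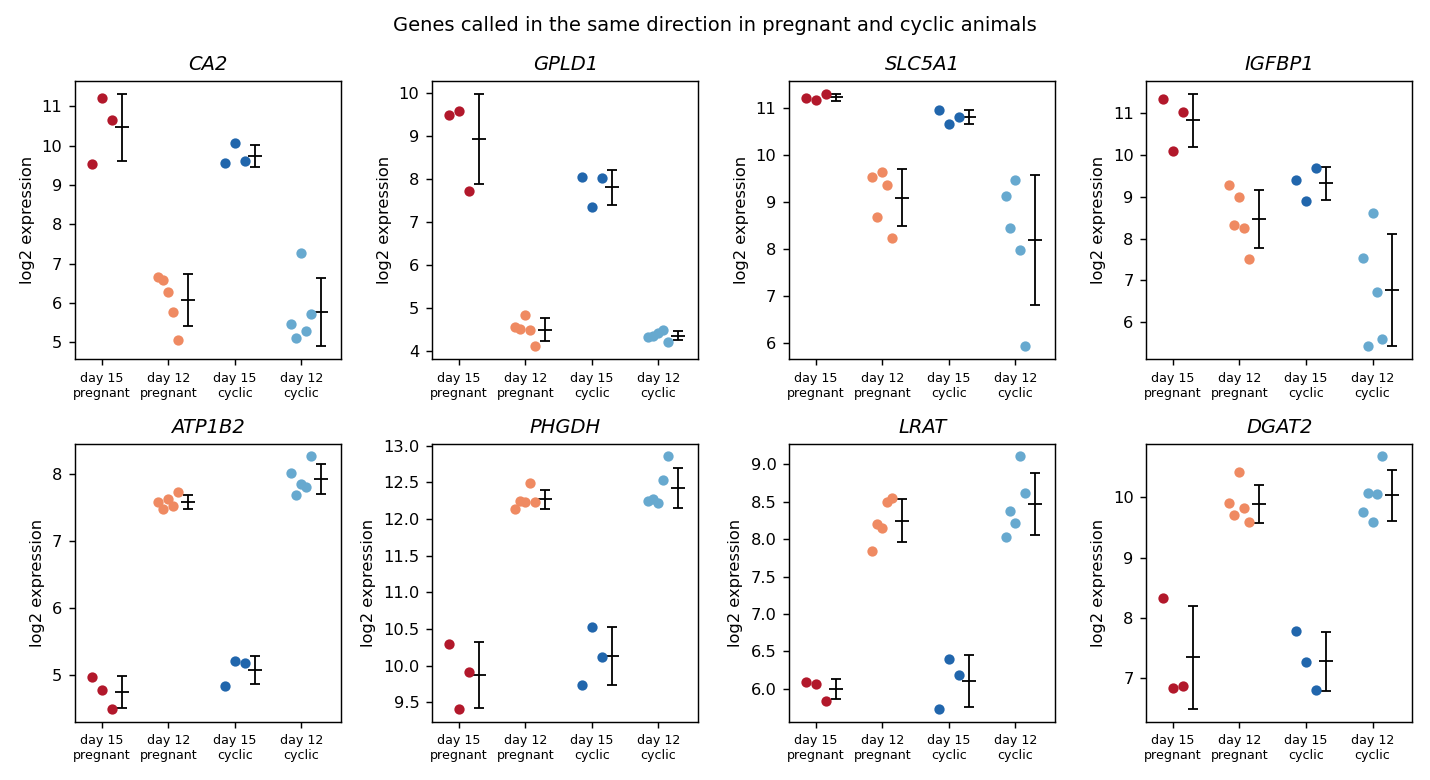
Log2 expression per animal (points) with the mean and SD beside them for 8 genes that passed in the same direction in both states, in 3 day 15 pregnant, 5 day 12 pregnant, 3 day 15 cyclic and 5 day 12 cyclic animals, all 16 arrays quantile normalised together. CA2, GPLD1, SLC5A1 and IGFBP1 are higher and ATP1B2, PHGDH, LRAT and DGAT2 lower on day 15 in pregnant and in cyclic animals.

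Several of the steepest changes outside these pathways also passed in the same direction in cyclic animals. The genes plotted were chosen because they passed in both states, so the plot does not measure how often changes were shared. CA2, a carbonic anhydrase, was at 9.52, 11.20 and 10.65 on day 15, against 6.65, 6.58, 6.28, 5.77 and 5.07 on day 12 of pregnancy. It rose by 4.39 ± 0.43 in pregnant and 3.98 ± 0.47 in cyclic animals. GPLD1, a phospholipase that releases proteins from their lipid anchors, was at 9.50, 9.59 and 7.73 on day 15, against 4.56, 4.52, 4.84, 4.50 and 4.12 on day 12. Its rise was 4.43 ± 0.38 in pregnant and 3.46 ± 0.32 in cyclic animals. CRYGS, a crystallin, rose by 4.10 ± 0.50 and 3.12 ± 0.49, and S100A12, a calcium-binding protein of neutrophils, by 4.06 ± 0.26 and 3.02 ± 0.27. In PLET1, GPLD1 and CRYGS day 15 replicate 3 was the lowest of its group, with 6.78 for CRYGS against 8.72 and 9.65, and in CA2 it was replicate 1.

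Among the falls, CNGA1, an ion channel subunit, was at 3.39, 3.30 and 3.27 on day 15, against 5.38, 6.65, 5.91, 6.24 and 7.23 on day 12. It fell by 2.96 ± 0.34 in pregnant and 3.47 ± 0.38 in cyclic animals. ATP1B2, a subunit of the sodium pump, was at 4.99, 4.79 and 4.51 on day 15, against 7.57, 7.47, 7.62, 7.52 and 7.72 on day 12, with falls of 2.82 ± 0.11 and 2.84 ± 0.13. The spread within each group was small beside this distance. PHGDH, the first enzyme of serine synthesis, changed by -2.39 ± 0.17 in pregnant and -2.30 ± 0.20 in cyclic animals, and LRAT, which stores retinol as esters, by -2.24 ± 0.15 and -2.37 ± 0.22. FMO2, a drug-metabolising oxygenase, fell by 2.69 ± 0.17 and 2.16 ± 0.30. SLC34A2, a phosphate transporter, fell by 2.27 ± 0.17 and FUT1, a fucosyltransferase, by 2.11 ± 0.13, with cyclic changes of -2.16 ± 0.19 and -2.61 ± 0.15. PRSS16, a serine protease, fell by 2.58 ± 0.43 in pregnant and 1.45 ± 0.52 in cyclic animals. CRIPTO, a coreceptor of Nodal signalling, fell by 2.43 ± 0.11 and 1.29 ± 0.21 (adjusted p of the difference = 0.0538). SUSD2, a membrane protein of endometrial stromal cells in humans, was at 7.43, 7.17 and 7.31 on day 15, against 9.37, 9.38, 8.89, 9.40 and 9.53 on day 12. It fell by 2.01 ± 0.14, with a cyclic change of -0.18 ± 0.34, and the difference did not pass (adjusted p = 0.0546).

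Of 33 extracellular matrix genes, 11 fell and 3 rose, with a median of -0.22 in pregnant and -0.24 in cyclic animals. In the values as deposited 23 fell and 0 rose, where 11703 of all 24016 probe sets fell and 3399 rose. COL1A1, a chain of type I collagen, was at 11.75, 11.39 and 11.10 on day 15, against 13.54, 12.80, 13.06, 13.49 and 12.08 on day 12. It fell by 1.58 ± 0.31 in pregnant and 1.51 ± 0.25 in cyclic animals, and POSTN, a matrix protein of remodelling tissue, by 1.24 ± 0.23 and 1.42 ± 0.34. Of 12 stromal fibroblast markers 6 fell and 1 rose, and 11 fell in the deposited values. Without day 15 pregnant replicate 3 the rises in the matrix list numbered 1.

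Smooth muscle markers pointed down as well: 6 of 9 fell and 1 rose, and the median was -0.78 in pregnant and -0.61 in cyclic animals. ACTA2, smooth muscle actin, was at 9.59, 9.50 and 9.36 on day 15, against 10.64, 10.93, 10.20, 11.93 and 9.92 on day 12. CNN1, a calponin, was at 6.99, 6.73 and 6.96 on day 15, against 8.12, 8.10, 7.67, 9.46 and 7.53 on day 12. Day 12 pregnant replicate 4 was the highest in both. The falls were 1.24 ± 0.38 for ACTA2, 1.28 ± 0.37 for CNN1, 1.02 ± 0.29 for TAGLN and 1.02 ± 0.19 for MYLK. The cyclic changes were -0.56 ± 0.42, -0.74 ± 0.40, -1.20 ± 0.33 and -0.64 ± 0.27 in this order. Without day 15 pregnant replicate 2 the list had 3 falls, and ACTA2 (adjusted p = 0.053), CNN1 (0.0553) and TAGLN (0.0676) no longer passed; without replicate 3 of that group ACTA2 (0.0647) and TAGLN (0.0593) did not pass. The mean level of the list was 8.17 to 8.28 on day 15 and 8.37 to 9.44 on day 12 in pregnant animals. Horn part moves with the day, and the part of smooth muscle in other changes was not tested.

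Endothelial markers fell in 6 of 12 cases and rose in none, with a median of -0.40 in pregnant and -0.02 in cyclic animals. Without day 15 pregnant replicate 1, 3 fell. In the values as deposited 11 fell, where 11703 of all 24016 probe sets fell. PECAM1, an adhesion molecule of endothelium, was at 7.32, 7.63 and 7.04 on day 15, against 8.45, 8.52, 8.02, 8.56 and 8.13 on day 12, a fall of 1.00 ± 0.16 with a cyclic change of -0.27 ± 0.15. The difference did not pass for any of the 12 markers (adjusted p = 0.0866 for PECAM1), and the other PECAM1 probe set did not pass between the days. Among 25 genes of angiogenesis 10 rose and 6 fell, with a median of 0.08 that became -0.20 in the deposited values. VEGFC, a growth factor of lymphatic vessels, rose by 1.48 ± 0.20, with a cyclic change of 0.13 ± 0.32 (adjusted p of the difference = 0.151). ANGPT1, a ligand that steadies vessels, rose by 1.17 ± 0.12 and by 0.94 ± 0.11 in cyclic animals. The 6 falls included NOS3 (-1.02 ± 0.13), KDR (-0.69 ± 0.14) and FLT1 (-0.60 ± 0.15). Their cyclic changes were -0.62 ± 0.17, -1.07 ± 0.16 and -0.01 ± 0.17 in this order.

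**Figure D4:**
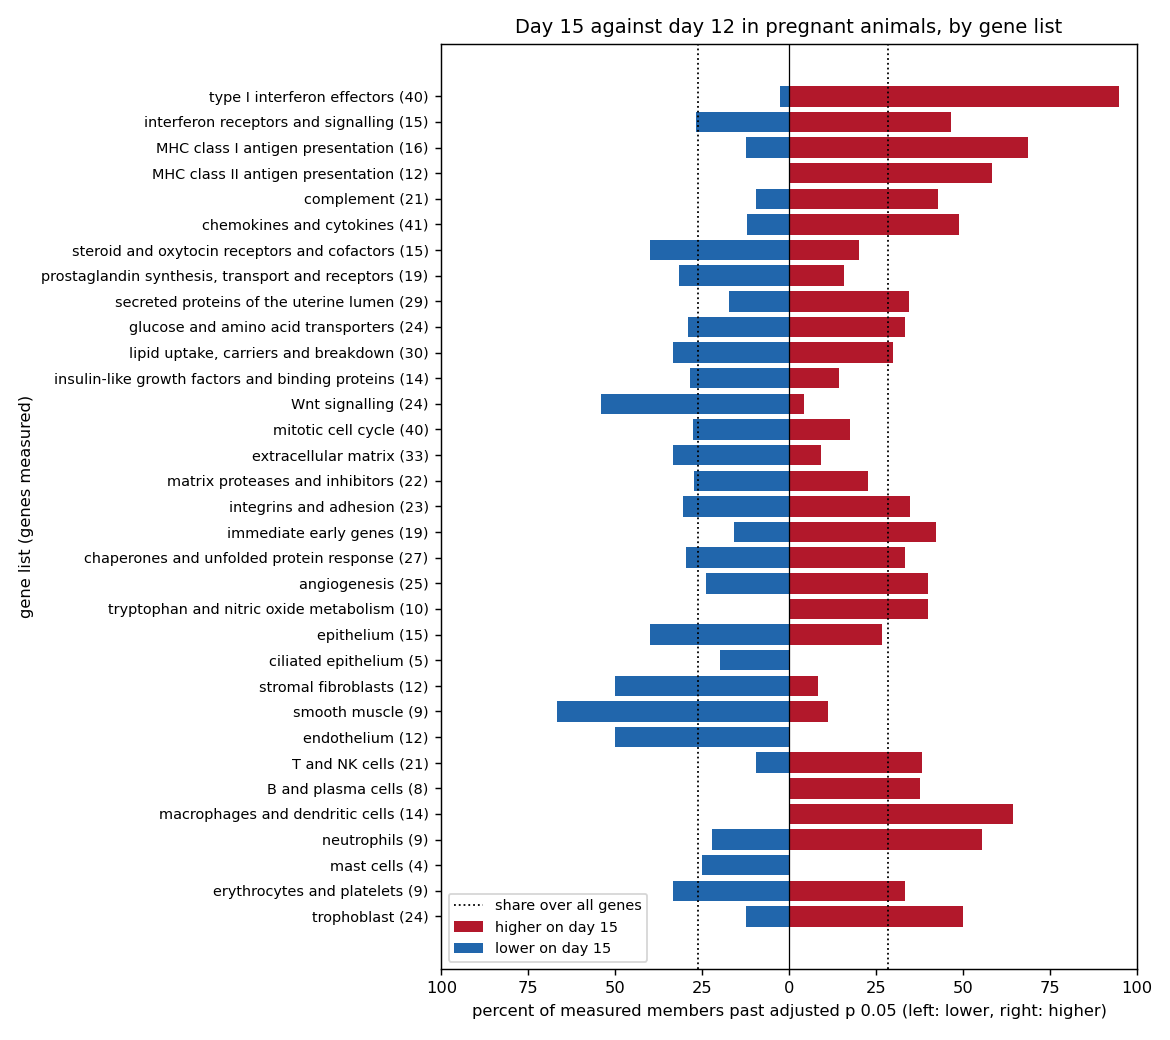
Percent of the measured members of each gene list that passed upward (right, red) or downward (left, blue) on day 15 against day 12 in pregnant animals; the number of genes measured stands in brackets and the dotted lines give the share over all genes. The type I interferon effectors reach furthest to the right (38 of 40) and smooth muscle furthest to the left (6 of 9).

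The plot of list shares also holds the following lists. Of 15 epithelial markers 4 rose and 6 fell, and the list's mean level was 8.27 to 8.29 on day 15 and 8.22 to 8.39 on day 12, so that the ranges of the days overlapped. Of 5 markers of ciliated epithelium 1 fell. Of 21 T and NK cell markers 8 rose and 2 fell, among them LCK, a kinase of the T cell receptor, which rose by 1.41 ± 0.13 in pregnant and 1.48 ± 0.17 in cyclic animals. B and plasma cell markers gave 3 rises among 8, neutrophil markers 5 rises and 2 falls among 9, and mast cell markers 1 fall among 4. Blood genes gave 3 rises and 3 falls among 9, with HBM, a globin, 1.44 ± 0.07 higher in pregnant and 1.47 ± 0.08 higher in cyclic animals.

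Of 40 cell cycle genes 7 rose and 11 fell, against 2 and 24 in the values as deposited. In those values 3399 of all 24016 probe sets rose and 11703 fell. CCNB1, a cyclin of mitosis, was at 7.35, 7.76 and 8.05 on day 15, against 9.69, 9.55, 9.65, 10.30 and 10.67 on day 12. It fell by 2.25 ± 0.27 in pregnant and 1.34 ± 0.32 in cyclic animals, while the median of the list was -0.08 and 0.02. CCNB1 alone in the list passed with a change of at least 2-fold, and CCNB2 rose by 0.71 ± 0.09 in pregnant animals. Immediate early genes gave 8 rises and 3 falls among 19, and chaperones 9 rises and 8 falls among 27. Matrix proteases and their inhibitors gave 5 rises and 6 falls among 22. Integrins and adhesion genes gave 8 rises (5 without day 15 pregnant replicate 3) and 7 falls among 23. The medians of the immediate early, chaperone, protease, integrin, epithelial, T and NK cell, B cell and blood lists changed sign with the scaling.

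Trophoblast genes were examined because the day 15 uteri were opened to remove the conceptus rather than flushed. Of 24 measured, 12 rose and 3 fell, and none rose 2-fold. The mean level of the list was 4.31 to 4.38 on day 15 and 4.19 to 4.26 on day 12 in pregnant animals. In cyclic animals, which carried no conceptus, it was 4.26 to 4.36 and 4.18 to 4.29. IFNT2, an interferon tau gene, was at 5.09, 5.18 and 4.86 on day 15, against 5.29, 5.39, 5.52, 5.58 and 5.24 on day 12, a fall of 0.36 ± 0.11 (adjusted p = 0.0167). It did not pass without day 15 pregnant replicate 3 (-0.27, adjusted p = 0.0743), and its cyclic change was -0.32 ± 0.13. All of these IFNT2 values lay below the median deposited value, which was 6.5 on day 15 and 6.86 on day 12. ELF5, a trophoblast transcription factor also made in secretory epithelia, fell by 2.01 ± 0.16 in pregnant and 2.32 ± 0.31 in cyclic animals. No trophoblast gene passed the test of the difference between pregnant and cyclic changes.

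Of the 51 genes whose change was more negative in pregnant animals, 3 belonged to the lists, which together hold 619 of the 9155 genes. That is near the share over all genes. FAP, a protease of activated fibroblasts, was at 9.04, 9.17 and 8.44 on day 15, against 9.61, 9.85, 9.57, 9.62 and 9.15 on day 12 of pregnancy. It fell by 0.67 ± 0.19 in pregnant animals (adjusted p = 0.0132; not passing without day 15 pregnant replicate 3, at -0.45), and rose by 0.51 ± 0.16 in cyclic animals. ADAMTS1, a matrix protease that progesterone induces in the mouse ovary, changed by -0.08 ± 0.13 in pregnant animals and rose by 0.73 ± 0.11 in cyclic animals. Its other probe set passed upward between the days in pregnant animals. CABYR, a calcium-binding protein, fell by 1.03 ± 0.17 and NDRG4 by 1.39 ± 0.12, with cyclic changes of 0.13 ± 0.15 and -0.51 ± 0.14. ALG13, which acts in protein glycosylation, fell by 0.51 ± 0.12 in pregnant animals and rose by 0.44 ± 0.11 in cyclic animals.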

How the data were processed

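The deposited table holds log2 expression values for 24128 probe sets, made by the authors with RMA (package affy), per the submitters' processing notes; versions are not given in the sources used here. Sorted values varied between arrays by an SD of at most 0.0566 over the 6 day 15 arrays, 0.0751 over the 10 day 12 arrays and 0.1841 over both (median log2 6.5 on day 15 and 6.86 on day 12), from which separate normalisation of the days was inferred. After 112 control probe sets were left out, 24016 were tested. The 8 pregnant arrays were quantile normalised together and compared with limma 3.58.1 in R 4.3.3 (lmFit, eBayes, no covariates, two-sided, Benjamini-Hochberg adjustment over all probe sets, threshold 0.05). The cyclic change and the difference between pregnant and cyclic changes (the interaction) came from 1 fit to all 16 arrays, normalised together. The arrays' number limits precision: the median SE was 0.09 in pregnant animals and 0.14 for the difference. In the array annotation 13292 probe sets had 1 gene symbol, 86 several and 10638 none. Each gene was read from its probe set of highest mean on the 8 arrays (2913 of 9155 genes had several). The fit was also run on simulated arrays with far fewer changed probe sets and no offset between the days. That run therefore does not bear on the normalisation of these arrays. Replicate numbers did not pair the animals (correlations of deviations 0.074, -0.023 and 0.058). Members and the 33 lists were chosen with earlier results of these data known. Genes named were taken from the 15 largest rises and falls without overlap between groups, up to 4 members of each list in each direction, the 8 largest differences each way, and a set of 35 pregnancy genes. Alternatives covered scaling, a low-value filter, array weights, a replicate block, the mean over a gene's probe sets, and each array left out.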

Additional observations from a re-analysis of the deposited data

Results flagged for a closer look

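The change between the days differed between pregnant and cyclic animals, by the test of the difference itself (limma, adjusted p below 0.05), for 453 probe sets upward and 155 downward. Among the genes described, the pregnant change exceeded the cyclic change, in log2 units, by 4.91 for MX2, 4.62 for ISG15, 4.26 for RSAD2, 4.09 for IFI44, 3.78 for IFI44L, 3.66 for SAMD9, 3.36 for USP18, 3.15 for RTP4, 2.99 for MX1, 1.73 for IFI6 and 1.37 for LGALS9. In the signalling and antigen presentation lists the excess was 2.28 for IRF9, 2.09 for IRF7, 1.35 for STAT2, 0.77 for IRF3, 1.35 for TAP1, 0.95 for PSMB9, 0.77 for PSME2 and 0.51 for IFI30. Outside them it was 3.57 for PLET1, 3.16 for CXCL10, 2.55 for CCL8, 2.23 for FABP3, 2.13 for DKK1, 1.31 for WARS1, 1.11 for CLDN4, 0.98 for C1R, 0.82 for SLC2A1, 0.77 for C1S, 0.72 for CDH1 and 0.59 for AIF1.

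The pregnant change lay below the cyclic change, with differences of -1.19 for FAP, -1.16 for CABYR, -0.95 for ALG13, -0.92 for NKIRAS1, -0.88 for NDRG4, -0.81 for ADAMTS1, -0.69 for CENPT and -0.64 for TP53INP1. When 1 of the 16 arrays was left out, the call was lost in 5 runs for NDRG4 and 5 for NKIRAS1 (in both without day 12 pregnant replicate 2, day 15 cyclic replicate 1 or 3, or day 15 pregnant replicate 1 or 3). It was lost in 4 runs for CENPT (without day 15 cyclic replicate 1 or 2, or day 15 pregnant replicate 2 or 3) and in 2 for TP53INP1 (without day 15 cyclic replicate 2 or day 15 pregnant replicate 3). Values in the runs that lost the call were -0.90 to -0.79, -0.92 to -0.84, -0.69 to -0.57 and -0.61 to -0.60 in this order.

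In 6 of the 113 genes tested for it, 1 of the 5 day 12 pregnant animals lay far from the others. Chance alone places about 1 in 20 such groups there. Replicate 1 was highest for USP18 (7.68) and S100A12 (4.97), and replicate 4 was highest for FMO2 (8.12) and PHGDH (12.5). Replicate 3 was lowest for SUSD2 (8.89) and replicate 5 for ADAMTS1 (10.37).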

How the results depend on the processing

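Under the requirement of a 2-fold change 721 probe sets were higher and 672 lower on day 15 of pregnancy, the lowest counts of any alternative. In the values as deposited 3399 were higher and 11703 lower, against 6266 and 6246 after joint quantile normalisation. The median over all probe sets was -0.25 in the deposited values, 0.11 under median centring (9274 higher, 5063 lower) and -0.01 here, and the share of calls that were higher was 22.5%, 64.7% and 50.1% in this order. The counts of differing changes kept within 1.5 times under the deposited values, median centring, the low-value filter and array weights (412 to 467 upward, 141 to 186 downward). With the replicate number as a block, 5246 probe sets were higher, 5234 lower, 402 differed upward and 130 downward. With it OXTR passed (-0.41, adjusted p = 0.0348), the changes of IFNT2 (adjusted p = 0.0595) and TP53INP1 (0.0744) did not, nor did the differences of DKK1 (0.0681), NDRG4 (0.0739) and C1S (0.0649). Leaving out 1 array gave 5387 to 6106 higher, 5359 to 6166 lower, 282 to 431 differing upward and 52 to 146 downward. The upward count was 282 without day 15 cyclic replicate 2 and 294 without day 15 pregnant replicate 1. The downward count was 52 and 58 without these, 68 without day 15 pregnant replicate 3, 87 without day 12 pregnant replicate 2 and 103 without day 12 cyclic replicate 5. Of 1692 recomputed gene changes 1662 kept their direction and side of the threshold, and 5 changed sign: IFNAR2 (-0.071 in the deposited values), PGR (0.15 under median centring), OXTR (0.068 under median centring), and ADAMTS1 (0.10) and STAT3 (0.13) as the mean over probe sets. For PGR, OXTR and IFNAR2 the shift of all probe sets under that scaling is as above, and for ADAMTS1 and STAT3 the cause was not tested. Of 818 recomputed differences 739 kept their call and 79 lost it. Of 990 recomputed counts of list members 93 moved by over 1.5 times. With 3 and 5 animals, changes near the median SE are not resolved.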
